A study of Mus musculus with 6 samples.

Results

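A group of 10 genes that mark or drive the epithelial to mesenchymal transition (EMT) were followed in prostate cancer xenografts from mice fed a high (HiGI) or a low (LoGI) glycemic index diet. They were taken from the count table by their human Ensembl identifiers, out of the 60649 genes listed. These are the epithelial genes CDH1, EPCAM and ESRP1, the mesenchymal genes CDH2 and VIM, and the transcription factors ZEB1, ZEB2, SNAI1, SNAI2 and TWIST1. In EMT, epithelial cells loosen their junctions and take on the shape and filament proteins of mesenchymal cells. Factors of the ZEB, SNAIL and TWIST families bind E-box sequences and repress CDH1, while exchange of E-cadherin for N-cadherin and gain of vimentin are its usual signs. In prostate cancer these changes are studied for their ties to invasion and therapy resistance.

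The tumors were grown from LAPC-4 cells, a human hormone-sensitive prostate cancer line with wild-type androgen receptor, injected with Matrigel into the right flank of male CB.17 scid/scid mice, which were 6 to 8 weeks old when purchased and lack functional B and T cells. All mice, of both groups, ate the HiGI diet until they were randomized at an average tumor volume of 200 mm3. From then on the HiGI group ate a Western diet with sucrose as carbohydrate, and the LoGI group one with the high-amylose starch Hylon-VII and maltodextrin. Tumors of 3 mice per diet, a subset of each group, were sequenced. Both diets had 48% of kcal from carbohydrate, and all tumors were taken at a set final volume after a fast. Tumors are called by their numbers in the sample records, which are 16, 20 and 26 for HiGI and 19, 27 and 28 for LoGI. All 6 tumors come from one cell line, so that the model holds a single genetic background, and it has no adaptive immune cells.

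Totals lay between 18749813 and 21550812 reads per tumor, and 3 reads corresponded to 0.139 to 0.16 CPM (counts scaled to library size). Levels below are CPM after TMM normalization, with mean ± SD. They are not scaled to gene length, so that a gene is compared between tumors and not with another gene. Log2 fold changes are LoGI over HiGI, with standard errors from DESeq2. Adjusted p-values come from the quasi-likelihood test of edgeR, adjusted by Benjamini and Hochberg over all 24545 genes tested, and a gene is said to have fallen or risen where that value was under 0.05. The epithelial label of LAPC-4 could be checked on members only. CDH1 had at least 6475 and EPCAM at least 3864 reads in every tumor. The mesenchymal gene CDH2 also had at least 1348 reads in every tumor. VIM had 952 to 1802 reads in HiGI tumors and 53 to 79 in LoGI tumors. The label was not tested further. In bulk tumors, fewer cells of a type and less RNA per cell cannot be told apart. Reads that match both human and mouse were kept, so that counts, those of VIM, ZEB1 and SNAI2 included, can hold reads from mouse cells. Their share was not tested.

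VIM, ZEB1 and SNAI2 fell in LoGI tumors, by 19.1-fold, 8.76-fold and 4.26-fold in mean CPM. CDH1, EPCAM, ESRP1, CDH2, ZEB2, SNAI1 and TWIST1 did not pass the test. The 3 members that fell are 30.0% of the 10, while 4.36% of all genes tested fell. The members were chosen with earlier results of these data known, so that these shares are no test. SNAI2 lost its call in some fits that left out a tumor. No member rose, and 0.367% of all genes tested did (0.0733% with a log2 fold change of 1 or more). At an unadjusted p under 0.05, 2 members were higher in LoGI tumors in that test of edgeR, namely EPCAM and ESRP1, as were 4.33% of all genes tested. This number was 0 without LoGI tumor 27, and 1 without HiGI tumor 16, without LoGI tumor 19 or with library totals as the only scaling. It was at most 3 under the alternatives run. The DESeq2 Wald test and edgeR's exact test also called the same 3 members lower and 0 higher. All 3 also had a log2 fold change of -1 or less, a joint criterion met by 3.38% of all genes tested. The median log2 fold change of the 10 members was 0.013, beside 0.0034 for all genes tested, since 6 of the 10 values were small and positive. All 10 members passed the filter of at least 10 reads over the 6 tumors.

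**Figure D1:**
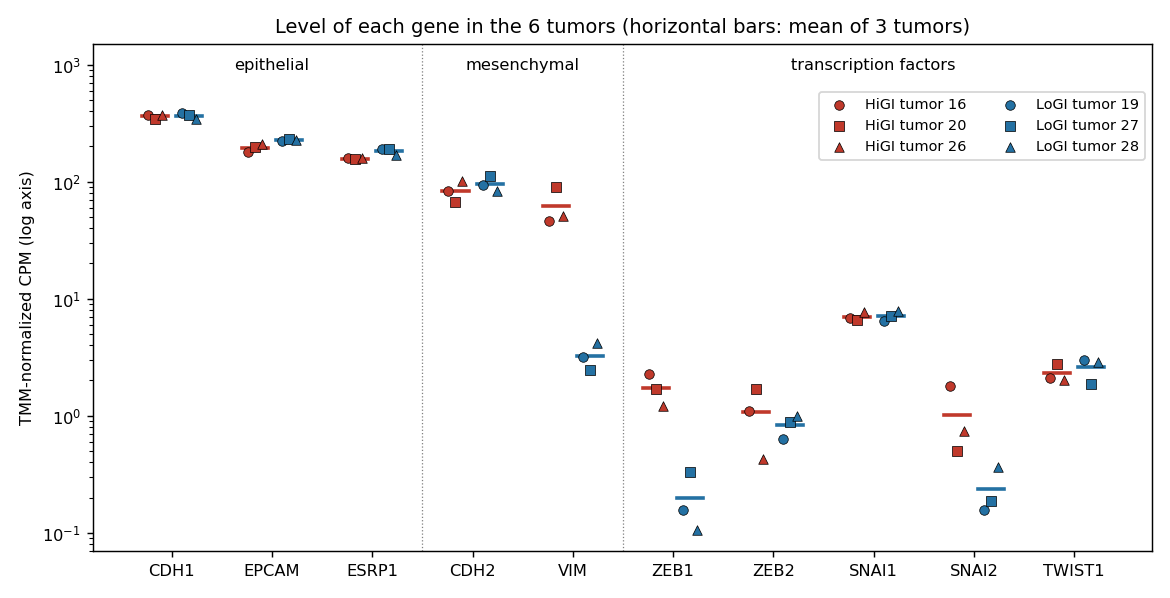
Level of each gene in TMM-normalized CPM (log axis) in the 3 HiGI tumors (red) and the 3 LoGI tumors (blue), with horizontal bars at the group means. Heights of different genes are not comparable, as CPM is not scaled to length. VIM, ZEB1 and SNAI2 are lower in LoGI tumors without overlap, and EPCAM and ESRP1 are higher without overlap. Of all genes tested, 10.9% were lower and 7.59% higher in LoGI tumors without overlap. VIM lies between 46.3 and 89.7 CPM in HiGI tumors and between 2.48 and 4.15 CPM in LoGI tumors.

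None of the 3 epithelial genes passed the test. CDH1 (ENSG00000039068) encodes E-cadherin, the adhesion protein of epithelial junctions. Reads on it numbered 8127 in HiGI tumor 16, 6901 in tumor 20 and 7004 in tumor 26, against 7374 in LoGI tumor 19, 7868 in tumor 27 and 6475 in tumor 28. The highest and the lowest of the 6 tumors in CPM were both LoGI tumors (19 and 28), and the diets overlapped. Its level was 363 ± 17.1 CPM (n = 3) on HiGI and 365 ± 23.5 CPM (n = 3) on LoGI. The log2 fold change was 0.01 (standard error 0.09, adjusted p = 0.988 in edgeR), a sign that turned with library totals as the only scaling (-0.03), with a minimum of 10 reads per tumor (-0.0027), and without HiGI tumor 20 (-0.03) or LoGI tumor 19 (-0.03). The 95% Wald interval of DESeq2 ran from 0.891 to 1.14 times the HiGI level.

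EPCAM (ENSG00000119888) encodes the epithelial cell adhesion molecule, a surface marker of carcinoma cells. It had 3864, 3965 and 3924 reads in the HiGI tumors and 4210, 4926 and 4331 reads in the LoGI tumors, in the order of tumors used above. Every LoGI tumor had more reads than any HiGI tumor, and the same held in CPM, where 7.59% of all genes tested were likewise higher without overlap. The level was 194 ± 15.7 CPM (n = 3) on HiGI and 226 ± 4.98 CPM (n = 3) on LoGI, 1.16-fold higher. With a log2 fold change of 0.22 (standard error 0.10) and an adjusted p of 0.229 in edgeR (unadjusted 0.0208), it did not pass the test.

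ESRP1 (ENSG00000104413) encodes an RNA-binding protein that sets the epithelial pattern of splicing. The HiGI tumors had 3444, 3116 and 2970 reads and the LoGI tumors 3589, 4082 and 3218 reads. In CPM the HiGI tumors lay close together, between 155 and 158, and every LoGI tumor lay above them, between 169 and 191. This was a 1.16-fold higher mean as well, with a log2 fold change of 0.22 (standard error 0.09, adjusted p = 0.213 in edgeR, unadjusted p = 0.0183). Like EPCAM, it did not pass the test. The Wald intervals ran from 1.03 to 1.33 times the HiGI level for EPCAM and from 1.03 to 1.32 times for ESRP1. The log2 fold change stayed positive for both genes under all alternatives run, between 0.16 and 0.27 for EPCAM and between 0.18 and 0.27 for ESRP1.

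CDH2 (ENSG00000170558) encodes N-cadherin, the cadherin of neural and mesenchymal cells that takes the place of E-cadherin in a cadherin switch. It had 1793, 1348 and 1917 reads in the HiGI tumors and 1785, 2391 and 1581 reads in the LoGI tumors. The diets overlapped, with LoGI tumor 27 highest and HiGI tumor 20 lowest. Its level was 83.8 ± 17.5 CPM (n = 3) on HiGI and 96.2 ± 14.6 CPM (n = 3) on LoGI, and its log2 fold change of 0.20 (standard error 0.15, adjusted p = 0.627 in edgeR) did not pass the test. It was 0.06 without HiGI tumor 20, 0.08 without LoGI tumor 27 and 0.37 without HiGI tumor 26. The Wald interval ran from 0.945 to 1.40 times the HiGI level.

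VIM (ENSG00000026025) encodes vimentin, the intermediate filament of mesenchymal cells. HiGI tumor 16 had 1007 reads, tumor 20 had 1802 and tumor 26 had 952, while LoGI tumor 19 had 60, tumor 27 had 53 and tumor 28 had 79. The diets were far apart, as even the lowest HiGI tumor was 11.2-fold above the highest LoGI tumor in CPM. Its level was 62.2 ± 23.9 CPM (n = 3) on HiGI, with tumor 20 well above the others, and 3.26 ± 0.840 CPM (n = 3) on LoGI. The log2 fold change was -4.26 (standard error 0.38, adjusted p = 1.79e-08 in edgeR), and the Wald interval ran from 11.3-fold to 32-fold lower. VIM held rank 58 of the 24545 genes by p. Of 3708 genes with a HiGI level at least that of VIM, itself included, 11 had a log2 fold change as low or lower. Of the 4992 other genes with a mean CPM within 2-fold of that of VIM, 173 (3.47%) fell and 13 had a log2 fold change at or below it.

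**Figure D2:**
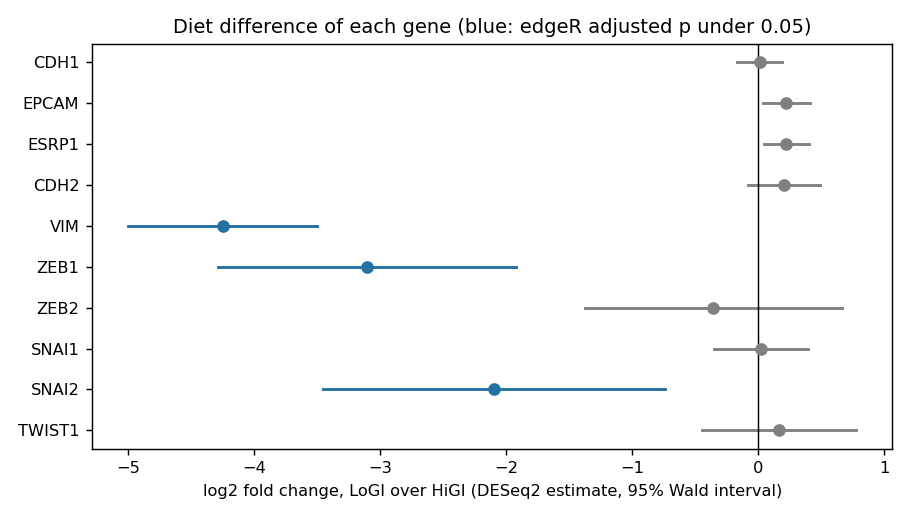
Log2 fold change of each gene, LoGI over HiGI, as estimated by DESeq2 with its 95% Wald interval, in blue where edgeR's adjusted p was under 0.05. VIM, ZEB1 and SNAI2 lie left of 0 with intervals that do not reach it. The intervals of EPCAM and ESRP1 lie just right of 0, though edgeR did not call these genes. CDH1 and SNAI1 are centred near 0 and the interval of ZEB2 spans from -1.38 to 0.66.

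Among the transcription factors, the 2 ZEB proteins are zinc finger and homeodomain repressors that bind paired E-boxes. ZEB1 (ENSG00000148516) had 49, 34 and 23 reads in the HiGI tumors and 3, 7 and 2 reads in the LoGI tumors. The diets did not overlap, but all LoGI values were close to the limit of depth. Its level was 1.72 ± 0.516 CPM (n = 3) on HiGI and 0.197 ± 0.116 CPM (n = 3) on LoGI, a log2 fold change of -3.07 (standard error 0.60, adjusted p = 0.000269 in edgeR). Over the tumors of a diet, 106 reads on HiGI stood against 12 on LoGI, a ratio of 8.66 with an exact binomial 95% interval of 4.76 to 17.3 that covers counting error only. Among 3997 other genes with a mean CPM within 2-fold, 287 (7.18%) fell, and 154 had a log2 fold change at or below that of ZEB1.

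ZEB2 (ENSG00000169554), its paralog, had 24, 34 and 8 reads in the HiGI tumors and 12, 19 and 19 reads in the LoGI tumors. The HiGI tumors held both the highest and the lowest value, and the LoGI tumors lay between them. Its level was 1.07 ± 0.634 CPM (n = 3) on HiGI and 0.839 ± 0.189 CPM (n = 3) on LoGI. The log2 fold change of -0.36 (standard error 0.52, adjusted p = 0.823 in edgeR) did not pass the test, and it turned to 0.11 without HiGI tumor 20. At this depth the Wald interval, from 0.385 to 1.59 times the HiGI level, covers changes in either direction that could not be detected.

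The SNAIL factors are zinc finger repressors with a shared N-terminal SNAG motif. SNAI2 (ENSG00000019549), also called SLUG, had 39, 10 and 14 reads in the HiGI tumors and 3, 4 and 7 reads in the LoGI tumors. HiGI tumor 16 stood above all others, and the lowest HiGI tumor was 1.35-fold above the highest LoGI tumor in CPM. Its level was 1.01 ± 0.688 CPM (n = 3) on HiGI and 0.237 ± 0.114 CPM (n = 3) on LoGI. The log2 fold change was -2.09 (standard error 0.69, adjusted p = 0.0441 in edgeR), close to the threshold. The 63 reads on HiGI and 14 on LoGI gave a ratio of 4.41, with an exact binomial 95% interval of 2.44 to 8.53 for counting error. This call was lost without HiGI tumor 16 (log2 fold change -1.37, adjusted p = 0.319 in edgeR), without LoGI tumor 19 (-1.87, adjusted p = 0.206) and without LoGI tumor 27 (-1.93, adjusted p = 0.18).

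SNAI1 (ENSG00000124216), or SNAIL, is the other family member measured. It had 148, 132 and 145 reads in the HiGI tumors and 122, 151 and 150 reads in the LoGI tumors. The HiGI tumors lay within the range of the LoGI tumors, with 7.03 ± 0.603 CPM (n = 3) on HiGI and 7.12 ± 0.741 CPM (n = 3) on LoGI. The log2 fold change was 0.02 (standard error 0.19, adjusted p = 0.982 in edgeR), with a sign that turned with library totals as the only scaling (-0.02) and without HiGI tumor 16, HiGI tumor 20 or LoGI tumor 28 (between -0.06 and -0.0048). The Wald interval ran from 0.785 to 1.32 times the HiGI level.

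TWIST1 (ENSG00000122691) encodes a basic helix-loop-helix factor of mesoderm. It had 46, 56 and 38 reads in the HiGI tumors and 57, 40 and 55 reads in the LoGI tumors. The diets overlapped, with 2.31 ± 0.418 CPM (n = 3) on HiGI and 2.58 ± 0.618 CPM (n = 3) on LoGI. Its log2 fold change of 0.16 (standard error 0.31, adjusted p = 0.884 in edgeR) did not pass the test and ranged from 0.04 to 0.36 with a tumor left out, and the Wald interval ran from 0.732 to 1.71 times the HiGI level.

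**Figure D3:**
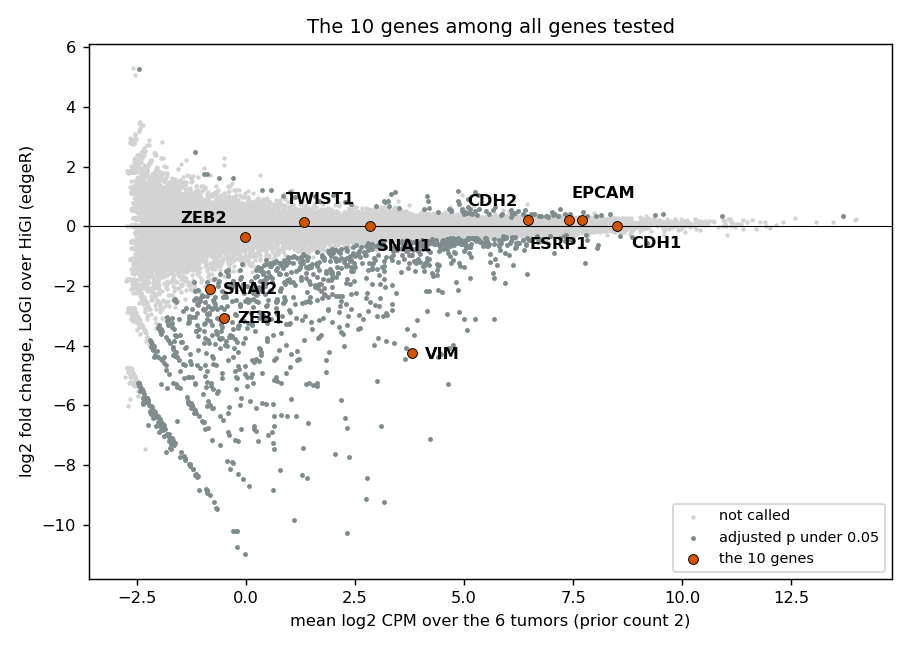
Mean log2 CPM over the 6 tumors against the log2 fold change of LoGI over HiGI from edgeR for all 24545 genes tested, with the 10 members in orange and other genes with an adjusted p under 0.05 in dark grey. VIM lies at -4.26 below the band of genes that were not called, ZEB1 and SNAI2 lie at -3.07 and -2.09 among genes with few reads, and the other 7 members lie near 0.

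Over the 10 members, the CPM of the diets did not overlap for VIM, ZEB1 and SNAI2, which were lower in LoGI tumors (10.9% of all genes tested), nor for EPCAM and ESRP1, which were higher (7.59% of all genes tested). The other 5 overlapped. By role, 0 of 3 epithelial genes, 1 of 2 mesenchymal genes and 2 of 5 transcription factors fell, beside 4.36% of all genes tested. These groups are small, and no difference between roles was tested. SNAI2, 1 of the 2 factors, lost its call in some fits that left out a tumor. In the pairs of close relatives, ZEB1 fell and ZEB2 did not pass the test, and SNAI2 fell and SNAI1 did not pass it. Such a difference in call is no test of a difference between relatives.

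The balance of 2 members was compared between diets by the log2 ratio of their reads within each tumor, with 0.5 added to each count. No scaling to library size enters it. The CDH1 to CDH2 ratio was set in the design. The other pairs were chosen after their values had been seen, so that their p-values only describe a separation already known. The smallest p that an exact two-sided permutation test can give with 3 tumors per diet is 0.1, and 4 ratios were tested. The log2 ratio of CDH1 to CDH2 was 2.18, 2.36 and 1.87 on HiGI (tumors 16, 20 and 26) and 2.05, 1.72 and 2.03 on LoGI (tumors 19, 27 and 28). It overlapped between diets and differed by -0.20 (exact permutation p = 0.4, adjusted over the 4 ratios 0.4). The difference was -0.09 without HiGI tumor 20 or without LoGI tumor 27, and -0.34 without HiGI tumor 26.

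The log2 ratio of VIM to CDH1 was -3.01, -1.94 and -2.88 in the HiGI tumors and -6.93, -7.20 and -6.35 in the LoGI tumors. VIM was thus lower relative to CDH1 in each LoGI tumor than in any HiGI tumor, and the means differed by -4.22 on the log2 scale. For ZEB1 to ZEB2 the means were 0.83 ± 0.75 (SD) on HiGI and -2.06 ± 0.82 on LoGI, and for SNAI2 to SNAI1 they were -2.97 ± 0.93 and -4.84 ± 0.45, each over 3 tumors. In all 3 pairs the diets did not overlap, and the exact permutation p was 0.1, the smallest possible here, or 0.133 when adjusted over the 4 ratios. With 2 added in place of 0.5, the difference moved from -2.89 to -2.46 for ZEB1 to ZEB2 and from -1.88 to -1.61 for SNAI2 to SNAI1, whose counts are low.

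**Figure D4:**
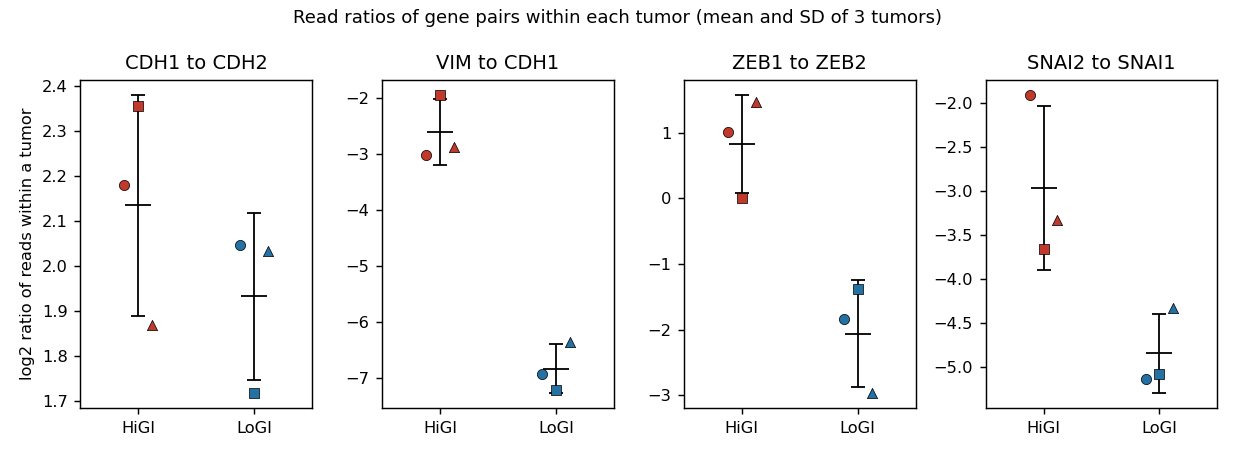
Log2 ratio of reads of 2 genes within each tumor (0.5 added to each count), by diet, with the mean and SD of 3 tumors in black. Each panel has its own scale. The CDH1 to CDH2 ratio overlaps between diets, while the ratios of VIM to CDH1, ZEB1 to ZEB2 and SNAI2 to SNAI1 are lower in all 3 LoGI tumors.

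The spread within a diet differed widely between members. The coefficient of variation over the HiGI tumors was 38.4% for VIM, 29.9% for ZEB1 and 68.0% for SNAI2, against 4.71% for CDH1, 8.07% for EPCAM, 1.13% for ESRP1 and 8.57% for SNAI1. ZEB2 was at 59.0%, CDH2 at 20.8% and TWIST1 at 18.1%. Over the LoGI tumors it was 25.8% for VIM, 59.2% for ZEB1, 47.9% for SNAI2 and 22.6% for ZEB2. With 3, 7 and 2 reads for ZEB1 and 3, 4 and 7 for SNAI2, counting error alone makes such values large. Whether the spread differed between diets was not tested. For the other members the coefficient on LoGI was 6.44% for CDH1, 2.20% for EPCAM, 6.56% for ESRP1, 10.4% for SNAI1, 15.2% for CDH2 and 23.9% for TWIST1. Among VIM and the 3 factors with fewest reads, the highest HiGI tumor was not always the same one. It was tumor 20 for VIM and ZEB2 and tumor 16 for ZEB1 and SNAI2.

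**Figure D5:**
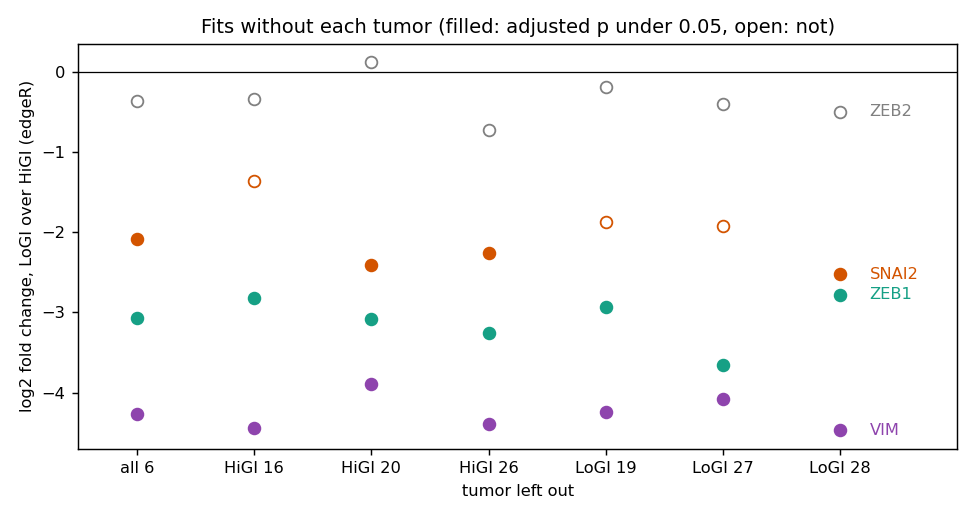
Log2 fold change of VIM, ZEB1, SNAI2 and ZEB2 with all 6 tumors and without each tumor in turn, filled where edgeR's adjusted p was under 0.05. VIM stays between -4.47 and -3.90 and ZEB1 between -3.65 and -2.78, all filled, while SNAI2 is open in 3 of the 6 fits and ZEB2 turns positive without HiGI tumor 20.

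VIM stayed called in each of the 6 fits that left out a tumor, with a log2 fold change between -4.47 and -3.90, and so did ZEB1, between -3.65 and -2.78. The adjusted p of edgeR reached at most 2.15e-06 for VIM and 0.00366 for ZEB1 over all alternatives that tested them.

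The genes closest in pattern to CDH1 and VIM over the 6 tumors were found among 9875 other genes with a mean of at least 10 CPM, by the root mean square difference of their centred log2 CPM. For CDH1 the closest was ENSG00000144736.14, at 0.00838 log2 units, with 609, 518 and 527 reads in the HiGI tumors and 547, 594 and 488 reads in the LoGI tumors. For VIM the closest were ENSG00000108679.13, at 0.315, and ENSG00000125618.18, at 0.356 log2 units. The first had 2378, 2565 and 1442 reads in the HiGI tumors and 134, 119 and 115 reads in the LoGI tumors. The second had 910, 1165 and 975 reads against 74, 73 and 95 reads. Both fell, with log2 fold changes of -4.07 and -3.63 (adjusted p = 6.19e-10 and 8.7e-10 in edgeR). They were chosen for this likeness, and their symbols were not looked up here.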

How the data were processed

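Tumor RNA (stranded mRNA libraries, single-end 75 bp reads) was measured in 3 HiGI and 3 LoGI tumors. The authors mapped reads to the human (GRCh38.p13) and mouse (GRCm38.p6) genomes and dropped those that matched mouse alone. What was left was aligned to human with STAR and quantified with RSEM. The deposited table holds whole-number counts for each gene, with no normalization. Reads that map to both species are not removed by this step. Whether counting used strand is not given in the sources used here, so that reads of genes antisense to a member cannot be told apart. Diets came from the sample records and columns were matched by name.

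Counts were TMM-normalized and tested with edgeR 4.0.16 (glmQLFit, glmQLFTest, default prior count 0.125) in R 4.3.3, on genes with at least 10 reads over the 6 tumors. The study's methods name edgeR with this adjustment. Standard errors and intervals came from DESeq2 1.42.0, and exact permutation tests from SciPy 1.17.1. The fit was tested on simulated data, in which 200 genes were changed 4-fold and all genes had the same spread. The changed genes had mean levels above those of ZEB1 and SNAI2, so that this does not cover their calls. Each tumor came from a separate mouse. Alternatives were other scalings, filters, tests and prior count, a minimum log2 fold change of 1, and leaving out each tumor.

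The members and lists were chosen with earlier results of these data known. Genes named are the 10 members and those closest in pattern to CDH1 and VIM, of which 3 of the 6 found are printed. The 14 lists of other EMT genes and cell type markers (246 symbols) were not looked up, because the name table used here holds mouse genes and matched 0 identifiers. Sequences and genome positions are not given for the same reason.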

Additional observations from a re-analysis of the deposited data

How the results depend on the processing

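VIM and ZEB1 kept their direction and their call under every alternative that tested them. ZEB1, ZEB2 and SNAI2 were not tested under a minimum of 10 reads per tumor, which left 1 member called lower in place of 3, and SNAI2 was not tested with filterByExpr, since these filters remove genes with few reads. SNAI2 went from -2.52 to -1.37 with a tumor left out and lost its call in 3 of those 6 fits. A prior count of 2 gave it -1.74, and ZEB1 -2.61. Signs turned for CDH1, SNAI1 and ZEB2 only. CDH1 had -0.032 with library totals only and -0.0027 under the minimum of 10 reads per tumor, and ranged from -0.034 to 0.056 with a tumor left out. SNAI1 had -0.023 with library totals only and went from -0.060 to 0.093 with a tumor left out, and ZEB2 went from -0.72 to 0.11. CDH2 went from 0.063 to 0.37 and the CDH1 to CDH2 ratio from -0.34 to -0.092 in those fits, with no change of sign. No member was called higher under any alternative run. The number called lower went from 2 to 3 with a tumor left out. Why these values moved was not tested, other than where a filter removes a gene. Results on other EMT genes and on cell type markers were not run, because their symbols were not looked up. Depth limits ZEB1, ZEB2 and SNAI2, with at most 49 reads in any tumor. No paired analysis was run, because mice were randomized to the 2 diets and the labels do not pair their tumors.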
